A study of Mus musculus with 19 samples.

Results

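Cytochrome P450 enzymes of families 1 to 3 were followed in the livers of 19 mice, each sequenced as 1 RNA library. The set held 62 genes of the 35976 rows of the deposited count table. It took every row named Cyp1, Cyp2 or Cyp3 with a single letter and digits, except Cyp2c70 and pseudogene symbols ending in -ps, which gave 59 P450 genes. Por, the reductase that passes electrons to these enzymes, and the receptors Nr1i2 (PXR) and Nr1i3 (CAR) were added. Of the 62 genes, 42 passed the filter on low counts and entered the tests, beside 16463 genes in all. By the labels, 7 livers came from Pkd1 WT mice, 6 from Het and 6 from Homo mice, and mice of each group had received Cre recombinase from an adeno-associated virus (AAV-Cre). All 19 mice had 3 months of a Western diet plus CCl4 (carbon tetrachloride, a liver toxin), a regimen used as a model of NASH (non-alcoholic steatohepatitis), and the design text calls them littermates. There was therefore no liver without the toxin, the diet or AAV-Cre. The labels give no sex, age, litter, promoter of Cre or deleted stretch of Pkd1. They do give each mouse a number in its title, with no statement of what it stands for. WT mice carry the numbers 1, 2, 3, 9, 11, 12 and 13, Het mice 4, 6, 7, 14, 19 and 20, and Homo mice 8, 10, 15, 16, 17 and 18.

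P450 enzymes of these families are haem proteins in the membrane of the endoplasmic reticulum. They oxidise drugs, toxins, steroids and fatty acids, and hepatocytes hold most of the body's supply. Electrons reach them from NADPH through Por, and cytochrome b5 can supply part of them. Transcription of many of the genes is raised by the receptors AhR (families 1A and 1B), CAR (Cyp2b10 and several Cyp2c genes) and PXR (Cyp3a11), and by the hepatocyte factor HNF4A. Cyp2e1, which oxidises ethanol and other small molecules, also turns CCl4 into the trichloromethyl radical that injures hepatocytes next to the central vein.

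The sequences just upstream of a transcript start are shown for 5 genes. One of them, Cyp2e1, activates the toxin and was the most abundant P450. The other 4 (Por, Nr1i3, Cyp2c67 and Cyp3a13) were those whose level followed the mouse number. Each sequence is the 250 bases before the RefSeq transcript start in GRCm38.p6, 5′ to 3′ on the gene's strand. Capitals mark 5 motifs on either strand: TATAAA (the TATA box), CAAAGTCCA (a core of HNF4A sites), CACGTG (the E-box, also bound by clock factors), GCGTG (the core that AhR binds) and CCAAT (the CCAAT box, ATTGG on the other strand).
Cyp2e1, chr7:140763569-140763818, plus strand: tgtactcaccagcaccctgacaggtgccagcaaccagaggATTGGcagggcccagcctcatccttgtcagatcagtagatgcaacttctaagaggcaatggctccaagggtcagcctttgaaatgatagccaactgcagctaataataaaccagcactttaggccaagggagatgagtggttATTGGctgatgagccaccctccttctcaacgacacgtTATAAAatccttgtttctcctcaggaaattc
Por, chr5:135688895-135689144, plus strand: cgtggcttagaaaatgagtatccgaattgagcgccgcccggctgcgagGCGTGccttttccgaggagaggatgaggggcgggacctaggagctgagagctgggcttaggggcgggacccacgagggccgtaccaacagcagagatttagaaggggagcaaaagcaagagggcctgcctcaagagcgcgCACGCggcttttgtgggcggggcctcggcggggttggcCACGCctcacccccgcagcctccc
Nr1i3, chr1:171213720-171213969, plus strand: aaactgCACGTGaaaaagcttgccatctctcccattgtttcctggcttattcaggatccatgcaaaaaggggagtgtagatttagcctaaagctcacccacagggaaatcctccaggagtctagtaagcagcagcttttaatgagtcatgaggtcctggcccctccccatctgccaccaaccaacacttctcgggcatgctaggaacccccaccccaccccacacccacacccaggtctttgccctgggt
Cyp2c67, chr19:39649043-39649292, minus strand: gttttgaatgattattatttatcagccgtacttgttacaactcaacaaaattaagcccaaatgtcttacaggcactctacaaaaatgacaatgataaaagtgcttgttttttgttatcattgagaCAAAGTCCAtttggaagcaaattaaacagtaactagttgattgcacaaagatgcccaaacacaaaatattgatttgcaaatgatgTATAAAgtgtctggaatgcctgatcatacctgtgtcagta
Cyp3a13, chr5:137921620-137921869, minus strand: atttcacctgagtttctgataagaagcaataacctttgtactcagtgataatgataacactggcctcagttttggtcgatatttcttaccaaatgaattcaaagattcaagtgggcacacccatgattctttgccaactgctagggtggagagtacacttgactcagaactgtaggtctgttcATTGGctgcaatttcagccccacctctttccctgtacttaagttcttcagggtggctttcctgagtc
In Cyp2e1 the TATA box lies from -31 to -26 and CCAAT boxes from -68 to -64 and from -210 to -206, counted from the start. Cyp2c67 had a TATA box from -40 to -35 and the HNF4A core from -125 to -117. In the GENCODE M21 annotation Cyp2e1 begins upstream of the start used here, at chr7:140763739. Its TATA box and nearer CCAAT box thus lie inside that gene. Cyp2c67 begins there at chr19:39649051, also within the bases shown. Por begins farther upstream, at chr5:135670033, so all its bases shown lie inside that gene. Por had no TATA box in these bases. It held 3 GCGTG cores, and 65.6% of its bases were G or C, against 32.8% in Cyp2c67. Nr1i3 held a CACGTG at -244 to -239 and Cyp3a13 a CCAAT box from -67 to -63. The 4 genes that followed the mouse number shared no marked motif.

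Over the whole set, 54 of 62 members matched a RefSeq promoter window of 300 bases (250 before and 50 after the start), with 57 windows in all. TATAAA was in 47.4% of them, against 13.6% of the 32851 windows of all genes, and CAAAGTCCA in 15.8%, against 0.475%. The 9 windows with CAAAGTCCA belonged to Cyp2c40, Cyp2c65, Cyp2c67, Cyp2c68 and Cyp2c69 and to Cyp3a11, Cyp3a16, Cyp3a41a and Cyp3a41b. AGGTCA, the half-site of nuclear receptors, was in 31.6% against 16.3%, and TGACCTTTG, which contains AGGTCA on its other strand, in 7.02% against 0.478%. TTGCNNAA, the C/EBP motif, was in 26.3% against 10.8% and CCAAT in 42.1% against 37.4%. GCGTG was rarer than in all windows (19.3% against 32.4%), as was CACGTG (3.51% against 7.15%), while TTANGTAA, the motif of PAR bZIP factors, stood at 1.75% against 2.32%. The median share of G or C bases was 47.7% in the members' windows and 52.7% in all windows, and the motif shares are not adjusted for this. Members of a subfamily share ancestry and sequence, so these windows are not independent, and a match is a description of letters, not of binding.

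Library totals ranged from 25.8M to 42.1M counts, and the 62 genes took 0.542% to 0.762% of them. The 7 hepatocyte markers with a row summed to between 29500 and 34900 CPM (counts relative to the TMM-scaled library size) in the 19 libraries. The sum is mostly Alb, Apob and Ahsg, with WT means of 9690, 9480 and 7190 CPM. Of the 7, edgeR called 1, Ttr, lower at higher mouse numbers and 0 higher. That call was lost without mice 1 to 3 (adjusted p = 0.106). Across all tested genes, 6.40% followed the mouse number, and mice 1, 2 and 3 are all WT, so number and genotype partly overlap. Values without these mice are given beside a number of the results.

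**Figure D1:**
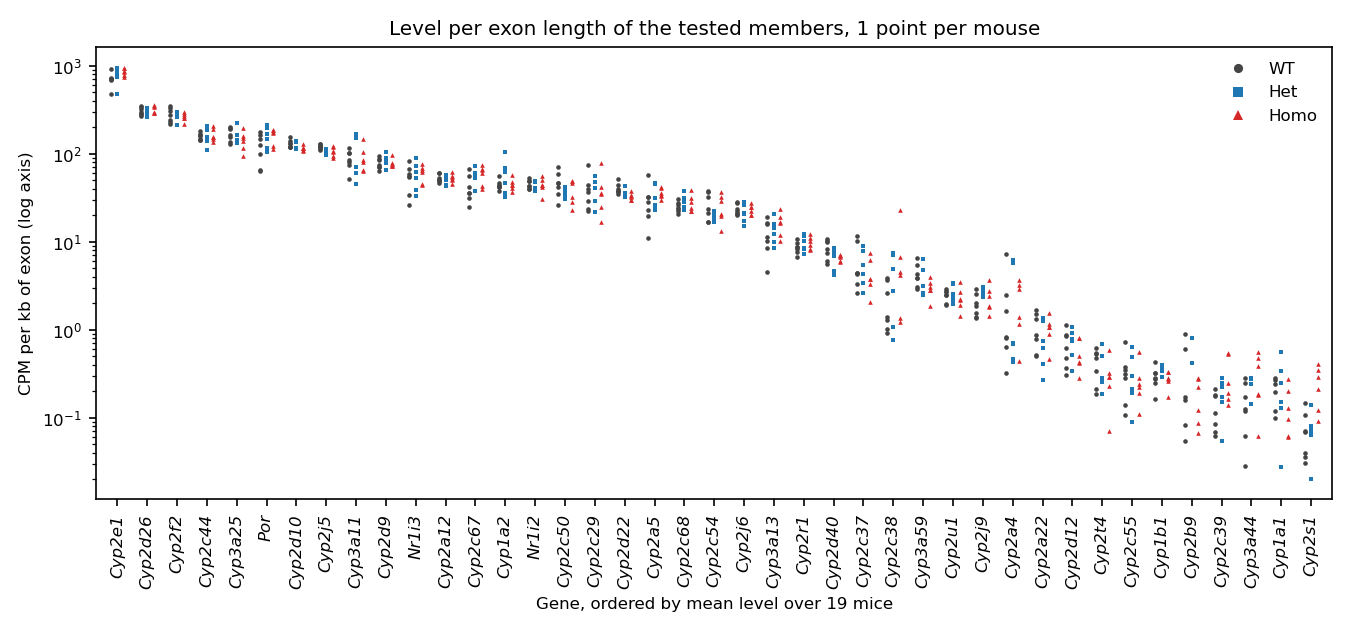
Level of the 41 tested members with a known exon length, in CPM per kb of exon on a log axis, with 1 point per mouse; circles are WT, squares Het and triangles Homo, and values of 0 are not drawn. Cyp2e1 leads, with a mean of 779 CPM per kb, and the 3 genotypes overlap for every gene.

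A handful of P450 genes made up most of the pool. Levels between genes are compared per kb of exon, since longer transcripts give more reads. Cyp2e1 had a mean of 779 CPM per kb over the 19 mice, with mice between 477 and 955. Cyp2d26 followed at 311, Cyp2f2, an enzyme of periportal hepatocytes that oxidises naphthalene, at 273, and Cyp2c44, an arachidonic acid epoxygenase, at 160 CPM per kb. Cyp3a25 had 156 and Por 144 CPM per kb. Cyp2d10 and Cyp2j5, the latter an epoxygenase of liver and kidney, had 123 and 112. Cyp3a11, a main drug-oxidising enzyme of mouse liver and target of PXR, had 90.0. Cyp2e1 alone held 30.8% of the P450 level per kb, ranging from 22.6% to 36.7% between mice, and the 6 highest P450 genes together held 71.6% (65.3% to 75.7%). By subfamily, 2D held 22.3%, 2C 14.0%, 2F 10.9%, 3A 10.6%, 2J 5.49%, 2A 3.48% and 1A 1.97%, while 2B held 0.0113%.

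Family 1 was represented almost wholly by Cyp1a2, the AhR target that clears caffeine. Its level was 76.7, 85.9 and 113 CPM (lowest, median, highest) in WT, 64.8, 110 and 213 in Het, and 73.7, 88.7 and 115 in Homo. Cyp1a1, a close relative that strong AhR ligands induce, reached no more than 1.55 CPM, in Het mouse 7, and had no count in WT mouse 13. Cyp1b1, an AhR target known mainly from non-hepatocyte tissues, lay between 0.957 and 2.48 CPM. The large gap between Cyp1a2 and Cyp1a1 was seen in every mouse.

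Of the 62 genes, 16 had a mean of at least 100 CPM, 12 between 10 and 100, 7 between 1 and 10, and 19 under 1 CPM with at least 10 counts in all. Another 5 (Cyp2b13, Cyp2b19, Cyp2b23, Cyp2j11 and Cyp3a41a) had 1 to 9 counts over the 19 libraries, and Cyp2c66, Cyp2j12 and Cyp3a41b had none. A count of 0 over all libraries allows a level of up to 0.00455 CPM (3 counts), and in a single library of up to 0.0718 to 0.116 CPM, for counting error only. Cyp2b10, the standard reporter of CAR activity in mice, was barely detected: 73 counts over 14 libraries, at most 0.405 CPM, in Het mouse 20. Nr1i3 itself, the receptor that drives Cyp2b10, was at 114 to 395 CPM, and Nr1i2 at 77.6 to 141 CPM.

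The 10 listed genes known for higher expression in female mouse liver were at 12.6 CPM or less in every mouse. Cyp2b13 had 5 counts, all in Het mouse 19, Cyp3a41a had 9 counts over 5 libraries, and of the 10 genes 4 passed the filter. Cyp2a4, a steroid hydroxylase, held that highest value. Cyp2b9 lay at 0 to 1.67 CPM, with no count in 5 of 19 libraries. Cyp2d9, which is known for higher levels in males and hydroxylates testosterone, was at 171 to 281 CPM. Cyp2r1, the hydroxylase that starts vitamin D activation in liver, stood at 14.0 to 26.2 CPM.

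In Homo against WT, the widest contrast of Pkd1 genotypes, 0 of the 42 tested members were called by edgeR (adjusted p under 0.05), where 0.480% of all tested genes were. At an unadjusted p under 0.05 8 of 42 passed, where 12.9% of all tested genes passed the same mark. DESeq2 called 1, Cyp2s1. For 0 members did the WT and Homo mice form ranges that do not overlap, against 0.911% of all tested genes. The members' log2 fold changes had a median of 0.01, with 22 above 0, beside a median of 0.00191 over all genes.

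**Figure D2:**
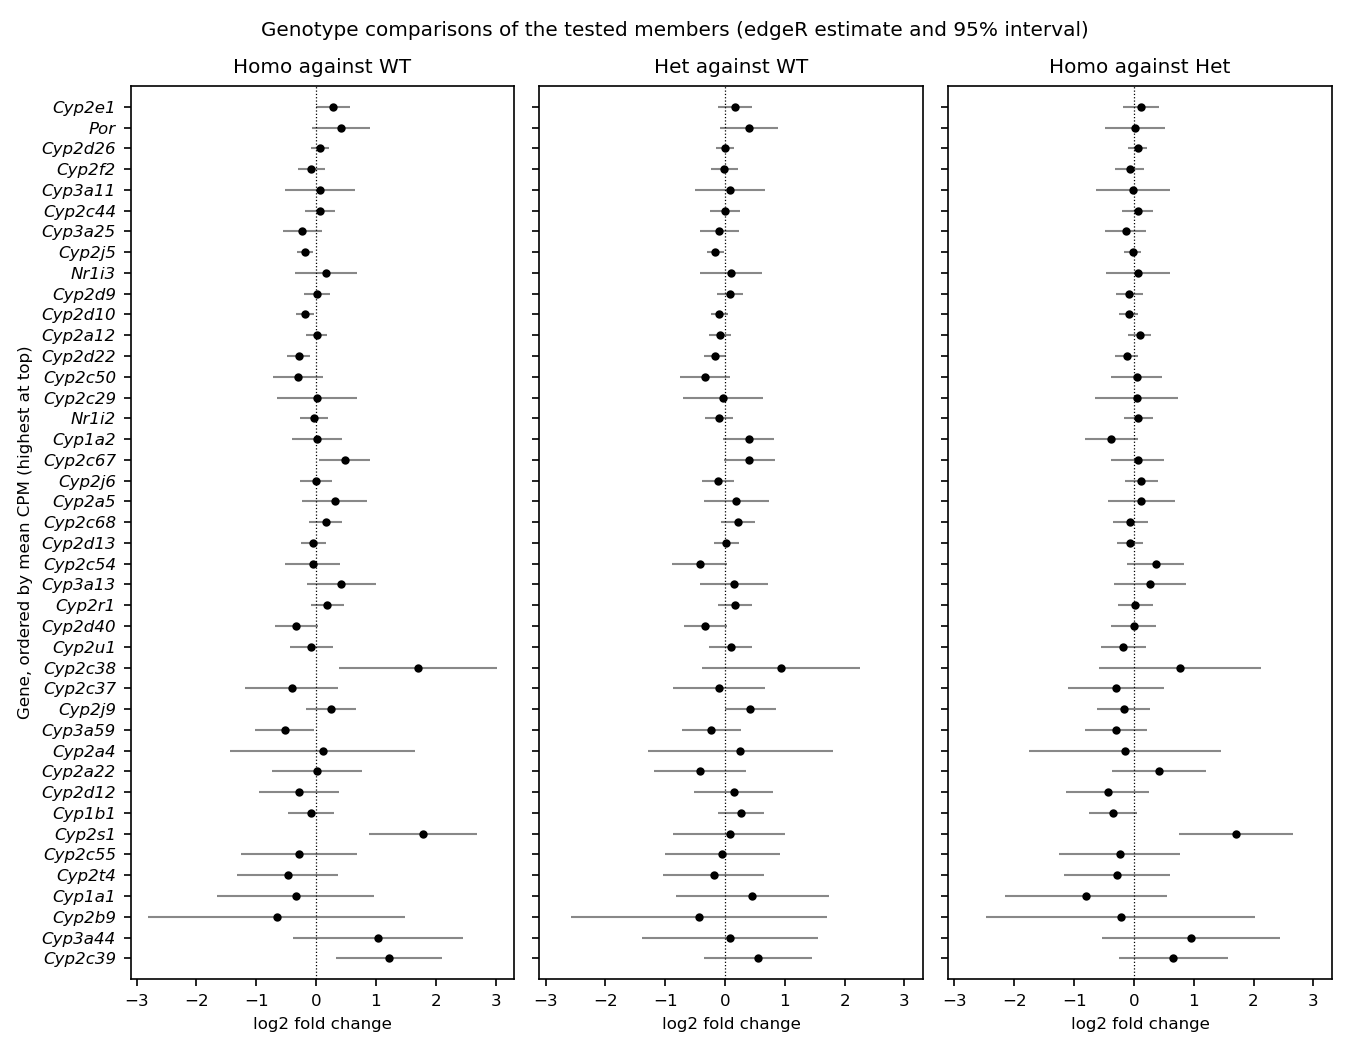
Log2 fold change of the 42 tested members in Homo against WT, Het against WT and Homo against Het (edgeR), ordered by mean CPM; points are estimates and lines 95% intervals. Cyp2d26, Cyp2j5 and Cyp2f2 have short intervals, other abundant genes such as Por and Cyp3a11 wide ones, and Cyp2s1 lies at 1.79 and 1.71 in the comparisons with Homo.

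Cyp2e1 was measured at 1030, 1520 and 1980 CPM (lowest, median, highest) in WT, 1030, 1760 and 2060 in Het, and 1600, 1860 and 2050 in Homo. The ranges overlap: WT mouse 11 exceeded 4 of the 6 Homo mice, and the lowest WT and Het mice, numbers 1 and 4, lay well below the rest. Set against WT, Homo livers had a log2 fold change of 0.28 ± 0.14 (SE; 95% interval -0.00198 to 0.57; adjusted p = 0.391, edgeR), and Het livers one of 0.17 ± 0.14 (-0.12 to 0.45; adjusted p = 0.761). With mouse number in the model the Homo value became 0.0998 ± 0.13 (adjusted p = 0.929), and without mice 1 to 3 it was 0.17.

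Intervals were narrower or wider for other abundant members. Cyp2d26 was at 0.07 ± 0.07 in Homo against WT (95% interval -0.09 to 0.22), Cyp2f2 at -0.08 ± 0.11 (-0.31 to 0.15) and Cyp1a2 at 0.02 ± 0.20 (-0.41 to 0.44). For Cyp3a11, which varied more between mice of 1 genotype, the estimate was 0.07 ± 0.28 (-0.52 to 0.66). Por was at 0.42 ± 0.23 (adjusted p = 0.456), but at 0.06 without mice 1 to 3, and its direction turned to -0.0229 with mouse number as covariate and -0.36 within mice 8 to 13. The receptor Nr1i3 was at 0.17 ± 0.25 and turned likewise, to -0.13, -0.31 and -0.58 under these alternatives. Nr1i2 was at -0.03 ± 0.11, and at 0.00755 without mice 1 to 3.

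Cyp2s1, a P450 known mainly from epithelia outside the hepatocyte, had the smallest p of the set. It was rare, with 6 to 24 counts per WT library, 3 to 23 per Het and 19 to 67 per Homo library. Its level was 0.151, 0.337 and 0.718 CPM in WT, 0.0994, 0.352 and 0.691 in Het, and 0.455, 1.25 and 2.00 in Homo. Homo mice 8, 10, 15 and 17 lay above all WT and Het mice, while Homo mice 16 and 18 fell within their range. The log2 fold change was 1.79 ± 0.43 in Homo against WT (95% interval 0.88 to 2.69; adjusted p = 0.0764, edgeR) and 1.71 ± 0.46 in Homo against Het (adjusted p = 0.215), against 0.08 ± 0.45 in Het against WT (-0.27 without mice 1 to 3). DESeq2 called both of the first comparisons (adjusted p = 0.00887 and 0.0437) and limma-voom neither (0.0981 and 0.344). Leaving out 1 library at a time gave adjusted p between 0.0505 and 0.161 for Homo against WT, and without mice 1 to 3 it was 0.423.

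Some bile duct markers were also higher in Homo livers, and others were not. The 8 cholangiocyte markers, all with counts, summed to 58.2, 76.0 and 160 CPM (lowest, median, highest) in WT, 61.1, 73.3 and 119 in Het, and 122, 150 and 165 in Homo. Of them, 3 of 8 were called by edgeR in Homo against WT, where 0.480% of all tested genes were. Krt7 was at 3.06 ± 0.40 (adjusted p = 0.00043) and Krt19 at 2.50 ± 0.40 (adjusted p = 0.00305), the keratins of duct cells. Tspan8 was at 1.98 ± 0.39 (adjusted p = 0.0233). Of the 5 not called, Epcam, Spp1 and Cldn7 had values above 0 and Sox9 (-0.12 ± 0.23) and Cftr (-0.64 ± 0.61) below. The sum is mostly Spp1, with a mean of 81.6 CPM in WT and 126 in Homo. Without mice 1 to 3, Krt7 was at 2.65 (adjusted p = 0.0164), Krt19 at 2.16 (0.057) and Tspan8 at 1.98 (0.243). The call of Tspan8 was also lost without WT mouse 1, 3, 11 or 13 or Homo mouse 10 or 15 (adjusted p up to 0.0747). The part of duct cells in the Cyp2s1 values was not tested. In bulk liver RNA, a change in the number of cells of a type and a change in RNA per cell cannot be told apart.

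**Figure D3:**
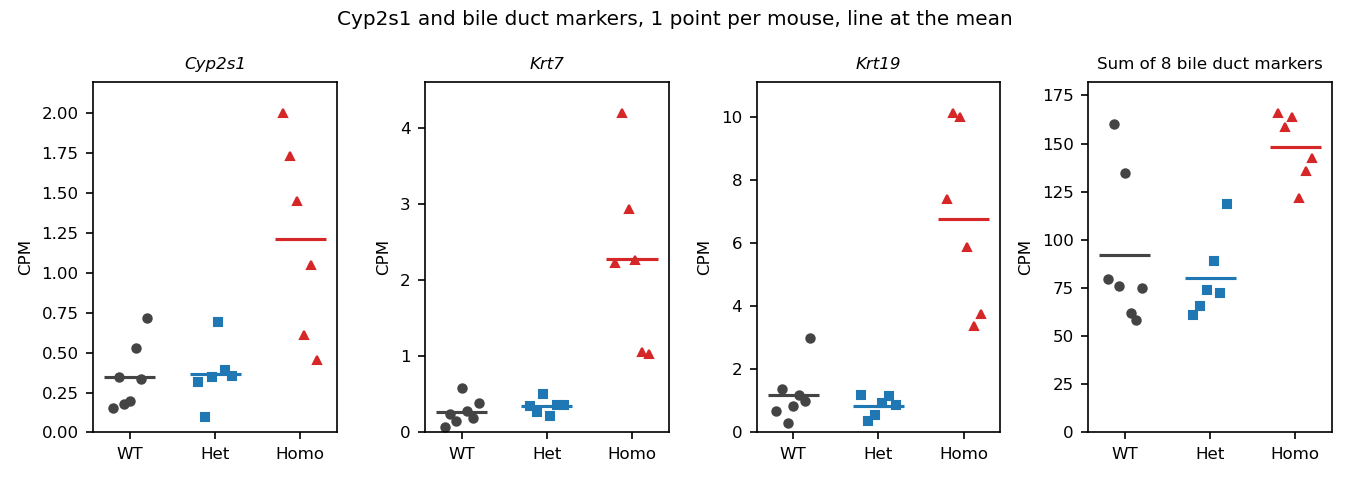
Cyp2s1, the duct keratins Krt7 and Krt19, and the sum of 8 bile duct markers, in CPM, with 1 point per mouse and a line at the genotype mean. Krt7 and Krt19 separate the 6 Homo mice from the rest, whereas 2 of 6 Homo mice overlap the others for Cyp2s1.

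The next smallest p-values in Homo against WT belonged to Cyp2d22, Cyp2c39, Cyp2j5 and Cyp2c38, none called. Cyp2d22 was at 136, 149 and 202 CPM in WT, 126, 136 and 167 in Het, and 115, 129 and 149 in Homo. Its log2 fold change was -0.29 ± 0.09 (95% interval -0.48 to -0.11; adjusted p = 0.162, edgeR). Cyp2j5 was at 260, 283 and 304 CPM in WT, 229, 256 and 269 in Het, and 211, 249 and 284 in Homo, with -0.19 ± 0.07 (adjusted p = 0.248). For these genes the Homo and WT ranges overlap, with the WT median above the Homo median. Cyp2c39, an enzyme that oxidises retinoic acid, stood at 0.111 to 0.389 CPM in WT and 0.255 to 0.979 in Homo (1.22 ± 0.43, adjusted p = 0.234). Cyp2c38 was at 2.61, 4.01 and 11.1 CPM in WT and 3.51, 12.6 and 65.8 in Homo (1.70 ± 0.63, adjusted p = 0.267). Its estimate rests partly on Homo mouse 16, the mouse at 65.8 CPM: the estimate was 0.775 without that mouse, the lowest of the leave-one-out values, which reached 1.93. Within mice 8 to 13 alone it was -0.875 (adjusted p = 0.872).

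In Homo against WT, edgeR called 0.480% of all tested genes, beside the counts below for genes around the P450 system. Whether these counts differ from that share was not tested. Of the AhR pathway list 0 of 6 genes were called in Homo against WT, with Arnt, the partner protein of AhR, at 0.30 ± 0.12 (adjusted p = 0.279) and Nqo1, a quinone reductase that AhR and NRF2 induce, at -0.36 ± 0.26 (adjusted p = 0.575). Of 18 transcription factors that control P450 genes 0 were called, and Hnf4a was at -0.0949 ± 0.08. Of 14 genes for electron donors and haem synthesis 0 were called. Alas1, the rate-limiting enzyme of haem synthesis, was at 117 to 487 CPM in WT and 244 to 482 in Homo, ranges that overlap, with a log2 fold change of 0.71 ± 0.25 (adjusted p = 0.226, edgeR). Hmox1, which breaks haem down, was at 6.74 ± 0.38 CPM in WT (SD, n = 7) and 5.13 ± 0.94 in Homo (n = 6; adjusted p = 0.151).

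Among 8 tested targets of CAR and PXR outside the P450 genes, 1 was called, where 0.480% of all tested genes were. Slco1a4, which carries organic anions into hepatocytes, was at 31.1 to 66.0 CPM in WT and 12.2 to 32.9 in Homo. Its log2 fold change was -1.03 ± 0.21 (adjusted p = 0.0248, edgeR), and the ranges overlap only at WT mouse 1 and Homo mouse 8. The call was lost without mice 1 to 3 (-0.99, adjusted p = 0.124), with mouse number as covariate (-1.05, 0.0834), and without WT mouse 3 or 11 or Homo mouse 10 or 18 (adjusted p up to 0.068). It was at -0.94 ± 0.21 in Het against WT (adjusted p = 0.342). Ces2a, a carboxylesterase, was at -0.32 ± 0.13 (adjusted p = 0.309). Of the 26 tested P450 genes of families 4 and above, 0 were called. Of 10 pericentral and 10 periportal hepatocyte genes 0 were called, and the lists' median log2 fold changes were -0.00509 and -0.19.

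In Het against WT 0 of 42 members were called by edgeR (background 0.0243% of genes), DESeq2 called 0, and 1 had an unadjusted p under 0.05 (8.84% of all genes did). That gene was Cyp2j5, at -0.16 ± 0.07 (adjusted p = 0.516). No member separated the groups (0.194% of all genes did), and 24 of 42 lay above 0 with a median of 0.05. Cyp2j9 was at 4.57, 6.23 and 9.79 CPM in WT and 7.84, 8.64 and 10.3 in Het (0.42 ± 0.20, adjusted p = 0.569). Cyp2c67 was at 42.8, 62.8 and 116 CPM in WT and 65.4, 96.1 and 127 in Het (0.41 ± 0.20, adjusted p = 0.579). That value was 0.15 without mice 1 to 3, and the value in Homo against WT went from 0.48 to 0.21 without them and to -0.295 within mice 8 to 13. Cyp1a2 was at 0.39 ± 0.20 (adjusted p = 0.592), with Het mice both the highest and the lowest of the 19. The lists of AhR pathway, transcription factors, electron donors and haem synthesis, and CAR and PXR targets held 0 called genes.

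In Homo against Het, 0 of 42 members were called by edgeR (background 0.182%) and 1 by DESeq2, Cyp2s1. At an unadjusted p under 0.05 there was 1 member, again Cyp2s1 (6.29% of all genes), and 0 members separated the groups (0.686%). The median was -0.01, with 20 of 42 above 0. Cyp1b1 was at -0.35 ± 0.19 (adjusted p = 0.843) and Cyp1a2 at -0.38 ± 0.21 (adjusted p = 0.843). Cyp2e1 was at 0.12 ± 0.14 (95% interval -0.18 to 0.41; adjusted p = 0.986). Each of the 3 comparisons shares a group with the others, so their values are not independent.

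More members were called for the mouse number than for genotype. With genotype in the model, 4 of 42 members changed with the number (edgeR, adjusted p under 0.05), where 6.40% of all tested genes did, and all 4 were higher at higher numbers (3.17% of all genes were). At an unadjusted p under 0.05 there were 11 of 42, against 20.3% of all genes. Whether 4 of 42 differs from these shares was not tested. The 4 genes were Por, Nr1i3, Cyp3a13 and Cyp2c67. They are described by number below because their slope was called, so their order over the numbers is not a separate result. Mice 1 to 3 are all WT and mice 14 to 20 hold no WT mouse, so the first and last numbers also differ in genotype.

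Por, on which all P450 enzymes of the endoplasmic reticulum depend for electrons, was at 260, 254 and 404 CPM in WT mice 1, 2 and 3. The next group by number, mice 4 to 13, lay between 425 and 709 CPM. Mice 14 to 20 lay between 678 and 858 CPM, the last in Het mouse 20. Mice 1 to 3 were below all others, and the latest numbers overlapped the middle ones only at WT mouse 13. This order restates the slope, and how many of all tested genes share it was not counted. The slope was 0.74 ± 0.09 on the log2 scale per 10 mouse numbers (adjusted p = 0.000308, edgeR). Within single genotypes it was positive in each: 1.12 ± 0.13 in WT (adjusted p = 0.00479), 0.52 ± 0.10 in Het (adjusted p = 0.122) and 0.71 ± 0.14 in Homo (adjusted p = 0.146). Without mice 1 to 3 it was 0.58 ± 0.08 (adjusted p = 0.00306).

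Nr1i3 (CAR) was at 114, 149 and 241 CPM in WT mice 1, 2 and 3, at 148 to 363 CPM in mice 4 to 13, and at 271 to 395 CPM in mice 14 to 20. The slope was 0.75 ± 0.13 per 10 numbers (adjusted p = 0.00223, edgeR), and 0.66 ± 0.13 without mice 1 to 3 (adjusted p = 0.0236). It was 0.92 in WT, 0.61 in Het and 0.82 in Homo mice, with adjusted p of 0.0534, 0.227 and 0.0656. Nr1i3 rose with the number, and its target Cyp2b10, too rare to be tested, was at or below 0.405 CPM in all mice. Nr1i2 (PXR) was at 0.19 ± 0.08 (adjusted p = 0.192).

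Cyp3a13, a 3A enzyme of liver and gut, was at 13.3, 24.9 and 33.4 CPM in WT mice 1 to 3, at 24.8 to 56.6 in mice 4 to 13 and at 35.7 to 70.0 in mice 14 to 20 (slope 0.73 ± 0.17, adjusted p = 0.0125, edgeR). Cyp2c67 was at 62.8, 54.9 and 42.8 CPM, then 62.6 to 116, then 96.7 to 130 CPM (slope 0.53 ± 0.13, adjusted p = 0.0163). For both, the first and last sets of mice did not overlap, and how many of all tested genes show this was not counted. The genes were chosen by their slope over the same numbers, and mice 14 to 20 hold no WT mouse. The calls ended without mice 1 to 3, at 0.57 ± 0.17 for Cyp3a13 (adjusted p = 0.0914) and 0.45 ± 0.15 for Cyp2c67 (adjusted p = 0.134). Within WT, Het and Homo mice alone the slopes were 1.07, 0.61 and 0.47 for Cyp3a13, and 0.75, 0.27 and 0.85 for Cyp2c67, none called. Of the 50-base stretches of Cyp2c67, 52.8% also occur in another gene, most often Cyp2c40, so its counts are uncertain.

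**Figure D4:**
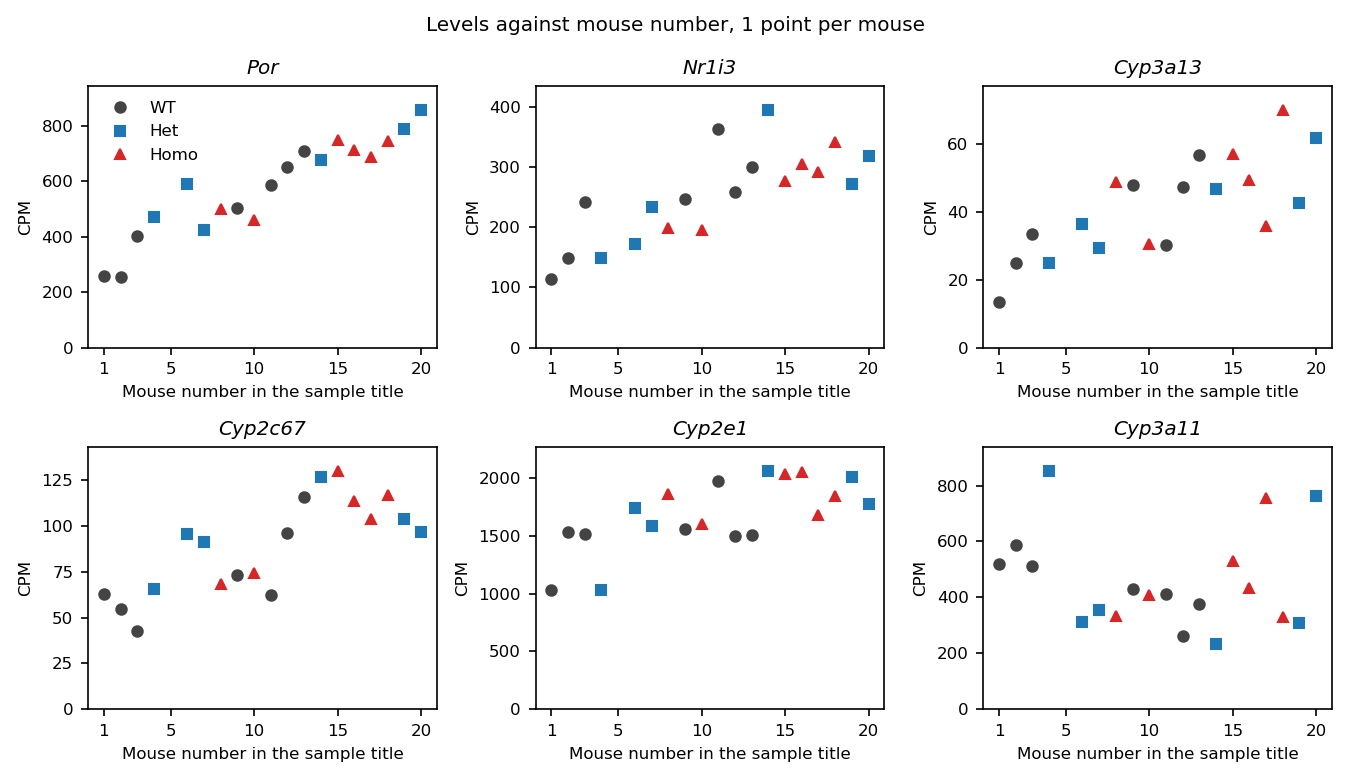
CPM of 6 genes against the mouse number in the sample title, with 1 point per mouse; circles are WT, squares Het and triangles Homo. Por, Nr1i3, Cyp3a13 and Cyp2c67 rise over the numbers, Por from 254 to 858 CPM, while Cyp3a11 was not called (slope -0.15 ± 0.23).

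Other prominent P450 genes were not called. Cyp2e1 had a slope of 0.28 ± 0.10 (adjusted p = 0.0908) and Cyp2d26 one of 0.15 ± 0.05 (adjusted p = 0.0932). DESeq2 called both, with adjusted p of 0.0371 and 0.0455. Cyp3a11 was at -0.15 ± 0.23, Cyp2f2 at 0.10 ± 0.09 and Cyp1a1 at -1.16 ± 0.50 (adjusted p = 0.189). Whether these slopes differ from that of Por was not tested.

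Across all tested genes, 6.40% were called for the number, beside the list counts below. Whether any list differs from that share was not tested. Genes of the supply lines to P450 enzymes moved both ways with the number. Of 14 genes for electron donors and haem synthesis, those called included Cpox, which was higher (0.30 ± 0.06 per 10 numbers, adjusted p = 0.00657), and Ppox, which was lower (-0.25 ± 0.07, adjusted p = 0.0294). Both are enzymes of haem synthesis. Of 18 transcription factors, 0 were called lower, and those called higher included Nr1h4 (the bile acid receptor FXR, 0.49 ± 0.08, adjusted p = 0.00189) and Ppara (0.26 ± 0.07, adjusted p = 0.0364). Arnt was the 1 of 6 AhR pathway genes called (0.27 ± 0.07, adjusted p = 0.0394), and 0 of 8 CAR and PXR targets outside the P450 genes were. Of 26 P450 genes of families 4 and above, 2 were called, Cyp4v3 and Cyp7a1. Cyp7a1, the rate-limiting enzyme of bile acid synthesis, was at 54.7, 91.4 and 62.3 CPM in mice 1, 2 and 3 and reached 574 CPM in Het mouse 20 (slope 1.76 ± 0.23, adjusted p = 0.000356).

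Circadian clock genes, a list of 13 added after the data were seen, held 3 called genes, where 6.40% of all tested genes were called. Whether the list differs from that share was not tested. Nr1d1 (REV-ERB alpha), a repressor of the clock, was at 72.4 to 95.1 CPM in mice 1 to 3 and 18.4 to 36.1 in mice 14 to 20 (slope -1.19 ± 0.15, adjusted p = 0.00028). Cry1 (0.59 ± 0.16) and Hlf (0.41 ± 0.09) were higher at higher numbers (adjusted p = 0.0291 and 0.00813), while Arntl (0.16 ± 0.43) and Dbp (0.00992 ± 0.23) were not called. Without mice 1 to 3, the slopes called in the gene lists around the P450 system and the clock list remained called for Nr1d1 (-1.17, adjusted p = 0.00774), Cyp7a1 (1.38, 0.00874) and Nr1h4 (0.32, 0.0333). They were not called for Cpox, Ppox, Ppara, Arnt, Cyp4v3, Cry1 and Hlf (adjusted p 0.0533 to 0.396). The labels give no time of collection, and the part of the clock in the values of Por, Nr1i3, Cyp3a13 and Cyp2c67 was not tested.

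The spread between mice of 1 genotype differed widely among P450 genes. The biological coefficient of variation (BCV, the spread of true levels between mice of a genotype as a share of the mean, from edgeR) had a median of 0.257 over the 42 tested members, against 0.185 over all tested genes, and 28 of 42 lay above the latter. These medians are not matched for level. Among the 500 genes nearest in level, only Cyp1b1, Cyp2j5, Cyp2d10 and Cyp2c39 of the tested members had a BCV below that of most (percentiles 23.6, 37.4, 41.4 and 41.6). Steady members included abundant ones: Cyp2j5 had a BCV of 0.0975, Cyp2d10 of 0.101 and Cyp2d26 of 0.106. Among the 500 genes nearest in level they stood at percentiles 37.4, 41.4 and 51.8. Cyp2e1 was at 0.179, which was percentile 86.8 among genes of like level. At the other end, Cyp2b9 had 1.38, Cyp2a4 0.882, Cyp3a44 0.798, Cyp2c38 0.748 and Cyp1a1 0.717, all of them genes with a mean of 12.0 CPM or less. Their percentiles for level were 97.2, 99.4, 78.8, 99.6 and 80.2. Among genes above 100 CPM, Cyp2c29, a CAR target, had 0.394 and Cyp3a11 0.352 (percentiles 98.2 and 97.6).

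**Figure D5:**
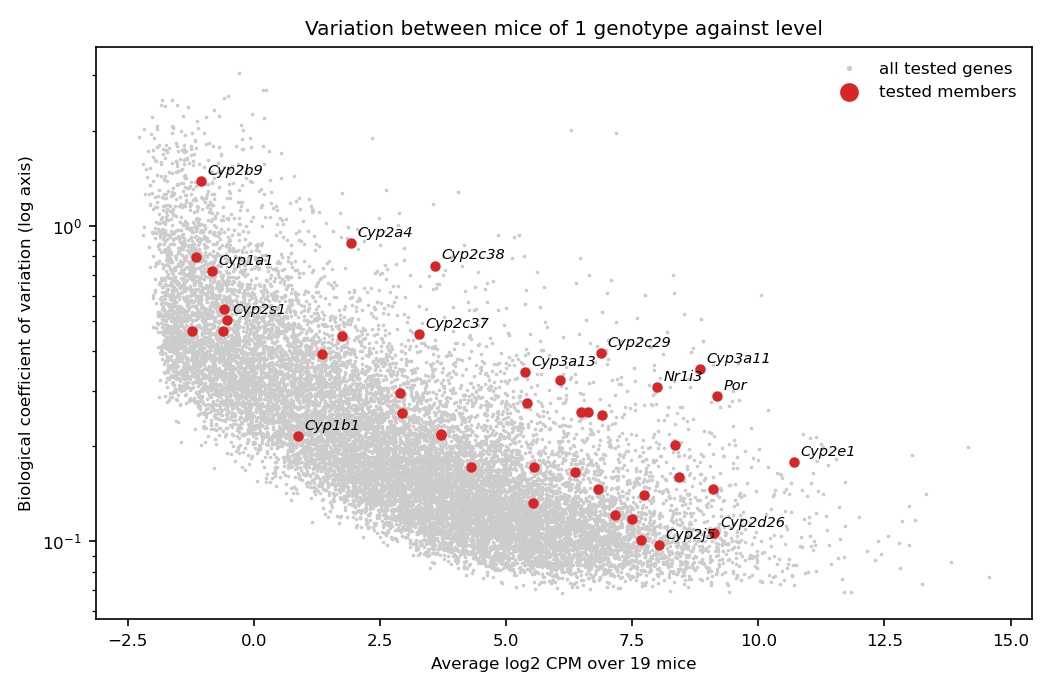
Biological coefficient of variation between mice of 1 genotype (log axis) against average log2 CPM, with tested members in red and all tested genes in grey. Cyp2j5 and Cyp2d26, at 0.0975 and 0.106, lie among genes of like level, and Cyp2a4, Cyp2c38, Cyp2c29 and Cyp3a11 lie high for their level.

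Some members had high values in the same mice, though often not their highest. Cyp2c38 ranged 30.1-fold, from 2.19 CPM in Het mouse 6 to 65.8 in Homo mouse 16. Cyp2a4 ranged 22.7-fold, from 0.554 CPM in WT mouse 1 to 12.6 in WT mouse 11. Cyp3a11 was at 851 CPM in Het mouse 4, 762 in Het mouse 20 and 756 in Homo mouse 17, and at 232 in Het mouse 14. Its 3 highest mice thus came from 2 genotypes, and the other 16 lay at or below 587 CPM. Het mice 4 and 20 were both among the 5 highest of 19 mice for 7 of 42 tested members: Cyp1b1, Cyp2a4, Cyp2b9, Cyp2c29, Cyp2c37, Cyp2c38 and Cyp3a11. This pair was noticed after the values were seen. How often all tested genes show it was not counted, so it cannot be read as a trait of P450 genes. Cyp2a4 was at 10.7 and 9.96 CPM in Het mice 4 and 20 and at 0.737 to 1.23 in the other 4 Het mice. Cyp2c37, a fatty acid hydroxylase, was at 16.3 and 14.4 against 4.74 to 9.94. Cyp2e1 did not share the pattern, with 1030 CPM in mouse 4, the lowest with WT mouse 1, and 1780 in mouse 20.

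Some of these values rest on near-identical copies. The share of a gene's 50-base stretches that also occur in another gene was 98.6% for Cyp3a41a and 93.5% for Cyp3a41b, so their counts of 9 and 0 say little about either copy. It was 60.3% for Cyp2c40, 54.3% for Cyp2c69, 43.3% for Cyp2c68, 35.8% for Cyp2d10 and 30.1% for Cyp2c37, against 3.87% for Cyp2e1, 6.73% for Cyp3a11 and 0% for Cyp2s1. For Cyp2a4 the share was 38.0% (36.1% in Cyp2a5), and for Cyp2a5 it was 37.0% (28.1% in Cyp2a4). Cyp2a5, which hydroxylates coumarin, was at 22.9 to 118 CPM, well above Cyp2a4. Their coding sequences of 1482 bases differ at 23 positions (98.4% identical), with an identical stretch of up to 216 bases. A stretch of coding exon 2, positions 197 to 256 of the coding sequence, shows 3 of the differences, in capitals.
Cyp2a4, chr7:26307666-26307725 (GRCm38), plus strand: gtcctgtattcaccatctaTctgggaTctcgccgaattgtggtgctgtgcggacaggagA
Cyp2a5, chr7:26835811-26835870 (GRCm38), plus strand: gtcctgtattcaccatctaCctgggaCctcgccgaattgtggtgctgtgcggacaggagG
Counted from 1 at the first base of the start codon, from Cyp2a4 to Cyp2a5, these are T216C, T223C and A256G. Reads between such positions cannot be given to 1 of the genes, and the sources used here do not say how the counting treated them.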

How the data were processed

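The data were 1 table of raw counts per gene symbol for 19 mouse livers. Reads came from total RNA with a NuGen Ovation mouse kit, per the labels' protocols. The authors deposited whole-number counts. Per the submitters' processing notes, the tools were STAR 2.7.2b and featureCounts 1.6.4 and the build GRCm38; no source used here states strand or multi-mapping settings. Dates stand where symbols should in 27 rows, which hold 0.145% to 0.174% of counts.

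Counts were analysed in R 4.3.3 with edgeR 4.0.16: TMM scaling, filterByExpr by genotype, and the two-sided quasi-likelihood F test over all 16463 genes with Benjamini-Hochberg adjustment. All 19 libraries entered 1 fit with genotype as factor, and a second fit added the mouse number. ± after a log2 value is its standard error unless SD is named, and CPM use TMM library sizes. CPM per kb divide by GENCODE M21 exon length, which Cyp2d13 lacks; Cyp2c44 was matched to its newer name Cyp2c23. Alternatives used DESeq2 1.42.0, limma 3.58.1 (voom), other filters and scalings, and left out libraries; for called genes outside the set these were added after seeing the data. Code was tested on simulated counts. Libraries of the same genotype all differed beyond sampling noise (smallest chi-square per df 21.6). The labels do not describe how samples were taken, so p-values measure the spread between these samples.

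The members, lists and tests were chosen with earlier results of these data known. Named genes follow a written rule: Cyp2e1, Por, Nr1i2 and Nr1i3, the members called, the 6 with the highest level per kb, the 3 with the smallest p in each comparison, the 3 with the largest BCV at a mean of at least 1 CPM, and examples of each subfamily. Others are named as parts of a count or a level class. Some genes and a motif of these lists are not reported here.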

Additional observations from a re-analysis of the deposited data

Results flagged for a closer look

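In 84 groups of 6 or 7 mice (30 named members by genotype, where measured), 6 held a mouse far from the others by Dixon's criterion; chance alone gives about 1 in 20. Cyp3a25 was at 471 CPM in Het mouse 19, with the next Het mouse at 339 CPM. Cyp2d22 was at 167 CPM in Het mouse 6 (next 141). Cyp2a4 was at 12.6 CPM in WT mouse 11 (next 4.36). Cyp2c38 was at 65.8 CPM in Homo mouse 16 (next 19.2), and Cyp2c29 was at 228 CPM in WT mouse 3 (next 134). Cyp2d9 was at 260 CPM in Homo mouse 18 (next 209). In each of these 6 groups the mouse apart was the highest.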

How the results depend on the processing

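The counts of called members moved in these settings. With DESeq2, 1 member (Cyp2s1) was called in Homo against WT and 1 (Cyp2s1) in Homo against Het, where edgeR called 0. At an adjusted p under 0.10, 1 member (Cyp2s1) passed in Homo against WT. For the mouse number, where edgeR called 4 members, DESeq2 called 6 and a threshold of 0.10 gave 6, in both cases adding Cyp2e1 and Cyp2d26, and the fit without a genotype term gave 5, adding Cyp2e1. Of the 4 members that followed the mouse number, 2 remained without mice 1 to 3 (Por and Nr1i3). In fits chosen after the data were seen, 1 was called within WT alone (Por), 0 within Het alone and 0 within Homo alone, with 6 or 7 mice in each fit. Leaving out 1 library at a time gave 0 members in each genotype comparison and 4 to 5 for the mouse number, with Por, Nr1i3, Cyp3a13 and Cyp2c67 called in all 19 fits (adjusted p up to 0.00102, 0.00815, 0.0353 and 0.0463). Over all genes, Homo against WT gave 79 calls with edgeR, 331 with DESeq2, 176 at an adjusted p under 0.10, 38 with mouse number as covariate, 25 without mice 1 to 3 and 2 within mice 8 to 13. Het against WT gave 4, 46 with DESeq2 and 2 within mice 1 to 13. Homo against Het gave 30, 113 with DESeq2, 51 at 0.10, 16 with limma-voom, 20 without a filter or with only these genotypes, and 0 within mice 14 to 20 (874 genes at an unadjusted p under 0.05). The mouse number gave 1054, 1701 with DESeq2, 1732 at 0.10, 1820 without a genotype term, 358 without mice 1 to 3, and 620, 4 and 6 within WT, Het and Homo. Leaving out 1 library gave 35 to 122, 4 to 7, 9 to 34 and 651 to 1070 calls in these comparisons. No paired analysis was possible because the mouse numbers are unique and replicate numbers were given in accession order. Members under about 1 CPM rest on few counts, which limits what their values can show.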
